A study of Mus musculus with 120 samples.

Results

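The inhibitors of cyclin-dependent kinases (CDK inhibitors) are 7 genes of the mouse genome, Cdkn1a, Cdkn1b, Cdkn1c, Cdkn2a, Cdkn2b, Cdkn2c and Cdkn2d, and all of them were followed here in mouse embryonic stem (mES) cells that overexpress 1 of 20 genes of human chromosome 21. They were taken by name: every probeset annotated to 1 of these symbols alone was kept, which gave 9 probesets out of 45101 on the Mouse 430_2 array, with the same 9 on the Mouse 430A_2 array. Cdkn1a and Cdkn1b have 2 probesets each and the other inhibitors 1, so that 20 experiments gave 180 responses. In build GRCm38.p6, Cdkn1a lies at chr17:29090979-29100722, Cdkn1b at chr6:134920401-134925525 and Cdkn1c at chr7:143458339-143461059. Cdkn2a lies at chr4:89274473-89294619, Cdkn2b at chr4:89306289-89311032, Cdkn2c at chr4:109660876-109666756 and Cdkn2d at chr9:21288459-21291421. A response is the log2 level after induction less that before it, as the mean over 3 clones, so that a value of 1 is a doubling.

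Cyclin-dependent kinases drive the cell through its cycle, and these small proteins hold them back. The Cip/Kip inhibitors (Cdkn1a, or p21; Cdkn1b, or p27; Cdkn1c, or p57) bind cyclin-kinase complexes of several kinds. The INK4 inhibitors (Cdkn2a, Cdkn2b, Cdkn2c, Cdkn2d) bind the kinases Cdk4 and Cdk6 and keep them from the D cyclins. Embryonic stem cells have a short G1 phase and are known for low activity of several of these genes. Cdkn1c is imprinted and is expressed from the maternal copy, and Cdkn1a is a target of the tumour suppressor p53.

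The clones derive from the mES line EB3 (EBRTcH3). By cassette exchange, each received 1 coding sequence with a 3xFLAG tag at the ROSA26 locus, behind a promoter that tetracycline (Tc) keeps silent. The uninduced group of each experiment holds 3 clones kept with Tc (0 hours), and the induced group 3 clones after Tc withdrawal. The arrays sample the induced state at 24 hours for Bach1, Dscr1, Erg, Ets2, Gabpa, Nrip1, Olig1, Olig2, Pknox1, RIKEN-1810007M14, Dyrk1a, Snf1lk, Pfkl, Zfp295 and Runx1, at 39 hours for Hunk, Ripk4 and Sim2, and at 48 hours for Aire and Pdxk. The study's clone table gives 39 hours for Pfkl. The Dyrk1a, Snf1lk and Zfp295 clones carry human coding sequences, the other clones mouse ones. The cells grew without feeders, with LIF and puromycin, and the dose of puromycin was higher for the Zfp295 and Hunk clones. For Olig2, 2 of the array clone names stand under Olig1 in the study's clone table. Clones of the same vector without a transgene after Tc withdrawal were not analysed here, so Tc withdrawal and transgene cannot be told apart in whatever the experiments share.

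The 10 genes listed as marks of embryonic stem cells, Pou5f1, Nanog and Sox2 among them, were above the lower quartile of all probesets in uninduced clones of 20 of 20 experiments. Array medians ran from 4.89 to 5.68 on the Mouse 430_2 array. The correlation of an array with the mean of its group was 0.983 or higher. A probeset of the overexpressed gene itself was called higher in 1 of 20 experiments, that of Runx1, where 2 of 5 probesets passed; the transgenes hold coding sequence alone. Values come from whole cultures, where fewer cells of a type and less RNA per cell cannot be told apart.

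Promoter sequences are shown for the genes whose responses are described most closely below other than Cdkn1c, which had no entry in the table used: Cdkn1a with its pair of start sites, and the INK4 locus, where Cdkn2a (also a pair of start sites, INK4a and ARF) and Cdkn2b lie next to each other on chromosome 4. Each run is the 250 bases before a RefSeq start site in build GRCm38.p6, 5′ to 3′ on the strand of the gene. Capitals mark the p53 response element in the first run and the GC box GGGCGG in the others.
Cdkn1a, upstream start (chr17:29090729-29090978, + strand): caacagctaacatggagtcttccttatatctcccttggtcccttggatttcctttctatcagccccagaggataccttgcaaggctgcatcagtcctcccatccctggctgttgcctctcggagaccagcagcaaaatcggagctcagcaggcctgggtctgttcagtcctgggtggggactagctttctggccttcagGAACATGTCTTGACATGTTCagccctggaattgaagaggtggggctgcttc
Cdkn1a, downstream start (chr17:29093519-29093768, + strand): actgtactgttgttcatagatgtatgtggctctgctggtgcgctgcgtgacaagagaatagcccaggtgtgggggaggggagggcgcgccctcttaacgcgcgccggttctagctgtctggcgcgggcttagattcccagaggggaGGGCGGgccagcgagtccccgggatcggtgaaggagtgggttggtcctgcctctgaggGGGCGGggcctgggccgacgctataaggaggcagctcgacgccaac
Cdkn2a, INK4a start (chr4:89282193-89282442, - strand): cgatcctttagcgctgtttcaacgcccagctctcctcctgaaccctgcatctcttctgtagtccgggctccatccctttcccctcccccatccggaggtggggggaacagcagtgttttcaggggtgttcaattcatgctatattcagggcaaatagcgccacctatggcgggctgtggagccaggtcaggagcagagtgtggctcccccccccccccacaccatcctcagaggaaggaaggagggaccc
Cdkn2a, ARF start (chr4:89294620-89294869, - strand): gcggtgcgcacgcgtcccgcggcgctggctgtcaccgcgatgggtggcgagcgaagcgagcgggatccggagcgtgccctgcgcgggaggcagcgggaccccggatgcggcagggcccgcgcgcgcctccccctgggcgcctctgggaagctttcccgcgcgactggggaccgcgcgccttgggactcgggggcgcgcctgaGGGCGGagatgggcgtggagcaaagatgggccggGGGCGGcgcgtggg
Cdkn2b (chr4:89311033-89311282, - strand): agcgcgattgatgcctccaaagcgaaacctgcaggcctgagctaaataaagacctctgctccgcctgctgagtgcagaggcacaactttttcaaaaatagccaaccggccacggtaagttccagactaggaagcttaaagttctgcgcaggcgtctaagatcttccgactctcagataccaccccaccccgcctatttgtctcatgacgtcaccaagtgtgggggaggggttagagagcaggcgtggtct

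The p53 element, searched as its 20-base consensus with no spacer and at most 2 mismatches, began 51 bases before the upstream Cdkn1a start. It was found in 217 of 32851 windows of the same length over all genes, or 0.661%. The GC box, on either strand, was in 32.7% of these windows. Both Cdkn1a start sites differed in it, with 0 matches before the upstream and 2 before the downstream start. TATAA, held on either strand by 22.8% of windows, began 25 bases before the downstream start. The upstream window held it too, on the other strand, 227 bases before the start. The INK4a window held 0 GC boxes and the ARF window 2. The RUNX motif TGTGGT (14.05% of windows) and the ETS motif CCGGAAGT (2.88% of windows), both read on either strand, were in 0 of the 9 windows of the 6 inhibitors with an entry. These are letters in a window of 250 bases and say nothing on binding. The tables used do not give the place of the probes in the transcripts, so no probeset was assigned to 1 start.

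Across the 180 responses, 13 passed limma's test at an adjusted p under 0.05, and 12 of these were higher after induction. Over all probesets of the 20 experiments, 0.732% of responses were called higher and 0.66% lower. They fell in 4 of 20 experiments, those of Aire, Erg, Nrip1 and Runx1. Cdkn1c was called in 4 experiments, each probeset of Cdkn1a in 3, and Cdkn1b, Cdkn2a and Cdkn2d in 1 each. Cdkn2b and Cdkn2c were called in 0 of 20 experiments by limma, with 6 and 2 responses at an unadjusted p under 0.05, against 9.79% of responses over all probesets. In the fit without the clone as a block, 5 calls remained, the Cdkn1c rise with Erg and 4 of the 5 with Runx1, and none with Aire or Nrip1.

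**Figure D1:**
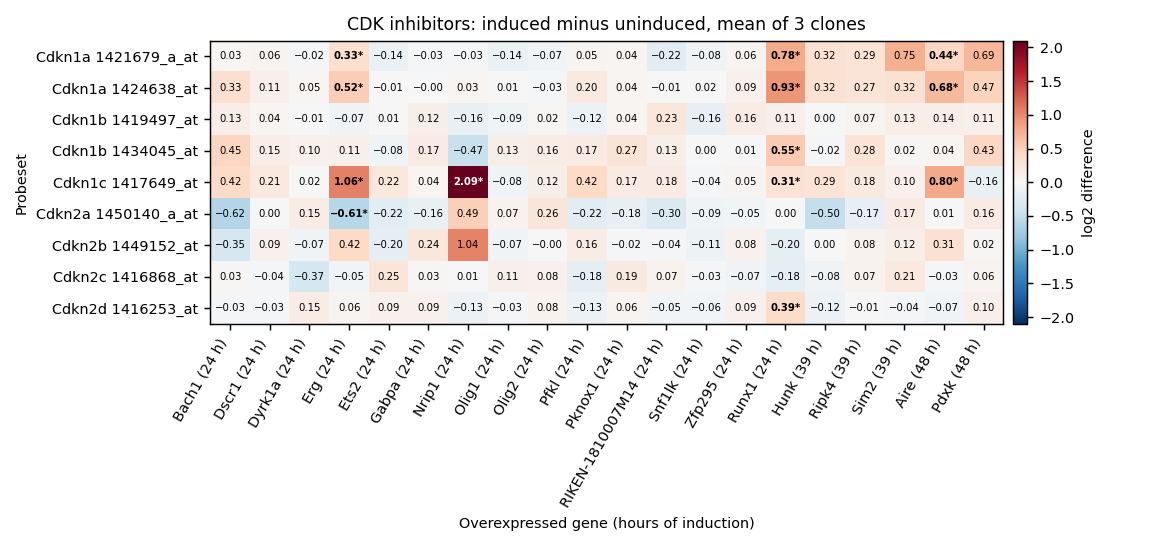
Response of each probeset (rows) in each experiment (columns, with hours of induction), as the mean log2 difference of 3 induced less 3 uninduced clones. Asterisks and bold type mark limma's calls at an adjusted p under 0.05, and the largest value is 2.09 for Cdkn1c in the Nrip1 clones.

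Cdkn1c showed the widest responses of the family. In the clones that overexpress Nrip1, a corepressor of nuclear receptors, its level before induction was 8.83, 8.34 and 9.15 in clones 1 to 3, and 10.72, 10.92 and 10.95 after it. The groups do not overlap, and the lowest induced clone stood above the highest uninduced clone. The difference was 2.09 (SE 0.162, n = 3 clones, limma adjusted p = 0.0257). Of all probesets in that experiment, 0.113% were called higher, and Cdkn1c was the 1 inhibitor of 9 probesets among them. The call was lost without clone 1 (2.19, adjusted p = 0.145), without clone 3 (2.24, adjusted p = 0.0638) and in the fit without the clone as a block (adjusted p = 0.0814).

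The next response of Cdkn1c came with Erg, an ETS family transcription factor known from blood vessels. Levels were 10.20, 9.79 and 10.20 before and 11.19, 10.90 and 11.28 after induction, again with no overlap. The rise of 1.06 (SE 0.0788, limma adjusted p = 0.000238) was alike in the 3 clones, at 1.00, 1.11 and 1.08. In the Erg clones, 3 of 9 inhibitor probesets were called higher, against 5.71% of all probesets, and 1 was called lower, against 6.28%.

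After 48 hours of Aire, the transcription factor of thymic self-antigen expression, Cdkn1c rose by 0.80 (SE 0.126, limma adjusted p = 0.0161). The 3 clones began far apart, at 10.61, 10.05 and 8.65, and ended at 10.98, 11.03 and 9.69. The groups overlap, and the rise is seen within each clone. The call was lost without clone 3 (0.67, adjusted p = 0.129) and without the clone as a block (adjusted p = 0.608). Here 3 of 9 probesets were called higher, against 2.45% of all probesets.

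In the Runx1 clones, on the other array, Cdkn1c went from 11.38, 11.22 and 11.56 to 11.66, 11.44 and 12.00. The groups overlap. The rise of 0.31 (SE 0.0705, limma adjusted p = 0.0384) lost its call without any 1 of the 3 clones and with arrays centred on their median (0.26, adjusted p = 0.0563). Runx1, a factor of definitive blood formation, gave 5 of 9 inhibitor probesets called higher, against 8.51% of all probesets on that array.

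**Figure D2:**
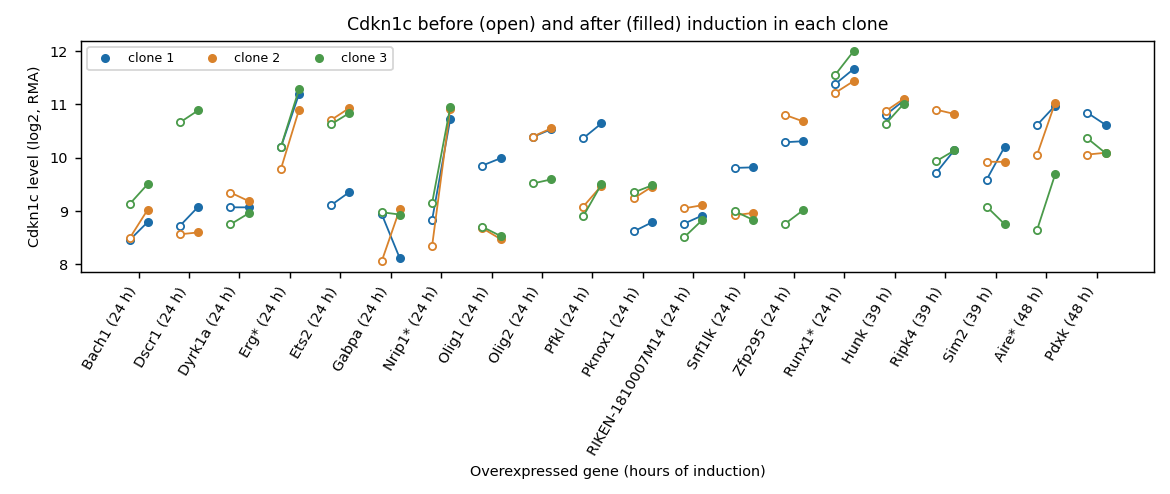
Level of Cdkn1c (log2, y axis) in each clone before induction (open) and after it (filled), joined by a line, for the 20 experiments (x axis, asterisks for limma's calls). Clones of 1 experiment can start far apart, and the Nrip1 and Erg lines rise most; Runx1 was measured on another array.

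In the other 16 experiments Cdkn1c was not called, with responses from −0.16 in the Pdxk clones to 0.42 in the Bach1 and Pfkl clones. It was higher in all 3 clones in 12 of 20 experiments, and lower in all 3 in 0. The mean over the 19 experiments of the Mouse 430_2 array was 0.32 (SE 0.108, limma adjusted p = 0.194), with 16 of 19 higher. The 19 experiments did not respond alike (limma's F test, adjusted p = 3.68e-08). That F test called 3 of the 9 inhibitor probesets (Cdkn1c, Cdkn2b and Cdkn1a 1421679_a_at) and 16.2% of all probesets. Set against the mean of the other 18 experiments, Cdkn1c stood 1.87 higher in the Nrip1 clones (SE 0.168, limma adjusted p = 3.31e-11) and 0.78 higher in the Erg clones (SE 0.168, limma adjusted p = 0.000582), the latter call being lost without clone 3 (0.77, adjusted p = 0.0542) and without the clone as a block (adjusted p = 0.547). The contrast called 3.92% of all probesets for Nrip1 and 12.3% for Erg.

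Gabpa is an exception within the family's pairing of clones. Its Cdkn1c levels were 8.95, 8.06 and 8.98 before and 8.11, 9.04 and 8.94 after induction, so that clone 1 fell and clone 2 rose by similar amounts around a mean response of 0.04 (SE 0.311). Over all probesets, the deviations of same-numbered Gabpa arrays correlated at 0.0460, −0.180 and 0.171, against a median of 0.376 over the 60 pairs of the series.

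Cdkn1a, the inhibitor induced by p53, rose with both probesets in the Aire, Erg and Runx1 clones. The rise was largest with Runx1. Probeset 1421679_a_at went from 8.96, 8.80 and 9.05 to 9.71, 9.68 and 9.75, a difference of 0.78 (SE 0.0665, limma adjusted p = 0.00169). Probeset 1424638_at went from 9.76, 9.79 and 9.90 to 10.62, 10.54 and 11.07, a difference of 0.93 (SE 0.0959, limma adjusted p = 0.00313). Neither pair of groups overlaps.

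With Aire, 1421679_a_at went from 8.24, 8.35 and 8.01 to 8.67, 8.71 and 8.52 (0.44, SE 0.0734, limma adjusted p = 0.0192). Probeset 1424638_at went from 9.47, 9.32 and 8.93 to 10.03, 9.79 and 9.94 (0.68, SE 0.107, limma adjusted p = 0.0155). All induced clones were above all uninduced clones for both probesets, and both calls were lost without clone 3.

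With Erg, the groups of both probesets overlap, since clone 2 was lowest in either state, while each clone rose. The response was 0.33 for 1421679_a_at (0.32, 0.20 and 0.49 in the clones, SE 0.0882, limma adjusted p = 0.0488) and 0.52 for 1424638_at (0.45, 0.36 and 0.75, SE 0.0974, limma adjusted p = 0.0129). Both calls were lost without clone 3 and without the clone as a block, and the first also without clone 1 and with arrays centred on their median (adjusted p = 0.0541).

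Responses of Cdkn1a were higher on average in the later experiments of the Mouse 430_2 array, with overlap. The Runx1 clones, with larger rises at 24 hours on the other array, are not in this comparison. Its probeset 1421679_a_at was higher by 0.29 to 0.75 in the 5 experiments sampled at 39 or 48 hours, and ran from −0.22 to 0.33 in the 14 sampled at 24 hours on the same array. The values of the 5 are 0.29 for Ripk4, 0.32 for Hunk, 0.44 for Aire, 0.69 for Pdxk and 0.75 for Sim2. At 24 hours, the response of Erg lay within that range and those of the other 13 experiments below it. The mean was 0.50 later and −0.01 at 24 hours, a difference of 0.51 (SE 0.0763, limma adjusted p = 0.000934).

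Probeset 1424638_at gave 0.41 later and 0.10 at 24 hours, a difference of 0.31 (SE 0.0783, limma adjusted p = 0.0205), with more overlap: Erg (0.52) and Bach1 (0.33) at 24 hours lay within the later range of 0.27 to 0.68. These 2 of 9 inhibitor probesets were called in that contrast, against 5.73% of all probesets. The second call was lost without Aire (adjusted p = 0.0854) or without Pdxk (adjusted p = 0.0754). Counting Pfkl as later left both calls.

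Time of sampling goes with other differences between experiments. The uninduced arrays are all at 0 hours, so hours of induction and hours of culture cannot be told apart, and each later time belongs to other genes. Array medians were 5.33 to 5.68 in the later experiments, 5.23 to 5.41 in the 24-hour experiments of Dyrk1a, Snf1lk, Pfkl and Zfp295, and 4.89 to 5.17 in the other 10 at 24 hours. Among the 9 experiments with medians above 5.2 alone, the differences were as large, 0.50 (SE 0.0953) and 0.32 (SE 0.0837), and missed the threshold with limma adjusted p of 0.0688 and 0.121. This subset was chosen after the data were seen.

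**Figure D3:**
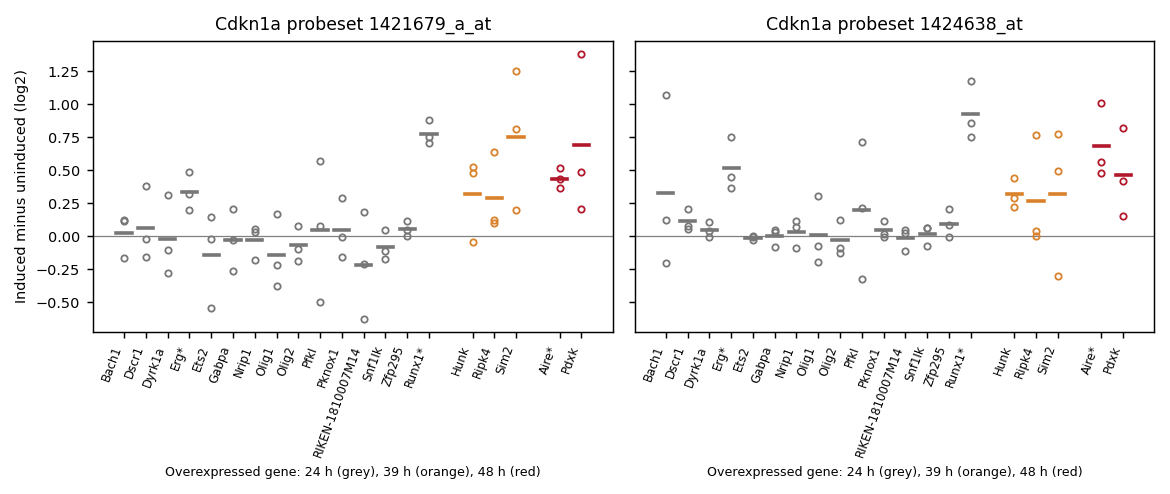
Response of both Cdkn1a probesets (log2 difference, y axis) in each experiment, with 1 circle per clone and a bar for the mean of 3, grouped by hours of induction (24 grey, 39 orange, 48 red). The 5 later means of 1421679_a_at lie between 0.29 and 0.75, while Erg and Runx1 (on another array) are the 24-hour means that reach that range.

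Single clones set some of these later values. In the Pdxk clones, 1421679_a_at rose by 1.38, 0.21 and 0.49, and the first clone had begun at 7.41, below the 8.88 and 8.41 of the others. In the Sim2 clones it rose by 0.81, 0.20 and 1.25, while 1424638_at changed by 0.77, 0.49 and −0.30, so that the probesets part in clone 3. Neither response of 1421679_a_at was called within its own experiment (limma adjusted p = 0.159 for Pdxk and 0.124 for Sim2). Both were called in 1 fit of the clone differences of all experiments on the Mouse 430_2 array (limma adjusted p = 0.00826 for Pdxk and 0.00193 for Sim2). The study's table lists the first pair of Sim2 clones in another order before induction than after it. Against the mean of the other 18 experiments, the Sim2 response of 1421679_a_at was 0.66 higher (SE 0.177, limma adjusted p = 0.0105), a contrast that called 9.3% of all probesets, and the call was lost without clone 1 (adjusted p = 0.0533) or clone 3 (0.39, adjusted p = 0.336), and without the clone as a block (adjusted p = 0.274). The difference of the other probeset, 1424638_at, was 0.15 (SE 0.164, adjusted p = 0.697).

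Averaged over the 19 experiments, Cdkn1a 1424638_at was 0.18 higher (SE 0.0449, limma adjusted p = 0.0969) and higher in 15 of 19. The mean response was called for 0 of 9 inhibitor probesets, against 0.0554% of all probesets, while 4 of 9 had an unadjusted p under 0.05, against 13.4% of all probesets. A fit on clone pairs with the experiment as a random block called 2 of 9 and 3.65% of all probesets.

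Cdkn1b, which holds Cdk2 in resting cells, responded in the Runx1 clones with its probeset 1434045_at. Levels were 8.18, 8.29 and 8.28 before and 8.79, 8.85 and 8.75 after induction, with no overlap (0.55, SE 0.0633, limma adjusted p = 0.00457). This call held in each of 11 alternative settings. The largest fall was in the Nrip1 clones, from 8.07, 7.34 and 7.47 to 7.62, 6.43 and 7.41 (−0.47, SE 0.163, limma adjusted p = 0.384). The largest rises outside Runx1 were 0.45 with Bach1, where 1 uninduced clone at 6.69 stood below the others at 8.12 and 7.91, and 0.43 with Pdxk (limma adjusted p = 0.118).

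The other Cdkn1b probeset, 1419497_at, was called in 0 of 20 experiments by limma, also with 0 at an unadjusted p under 0.05. Its mean before induction lay under the lower quartile of all probesets in 9 of 20 experiments, among them that of Runx1 (3.91, 4.16 and 4.15, against a quartile of 5.06), where its response was 0.11.

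Of the INK4 genes, Cdkn2b, known as a target of TGF-beta signalling, moved most in the Nrip1 clones. It went from 5.78, 5.59 and 6.08 to 6.57, 6.99 and 7.003, with no overlap, a difference of 1.04 (SE 0.135) whose limma adjusted p of 0.0550 missed the threshold within the experiment. The 19 experiments did not respond alike (F test, limma adjusted p = 6.43e-06). Against the mean of the other 18, the Nrip1 response was 1.00 higher (SE 0.115, limma adjusted p = 1.55e-08), a call that held in each of 6 alternatives. With Erg, Cdkn2b rose in clones 1 and 3 (0.54 and 0.73) and stayed level in clone 2, and the mean of 0.42 was 0.35 above that of the other experiments (SE 0.115, limma adjusted p = 0.0334), a call lost without clone 1 (0.29, adjusted p = 0.318), without clone 3 (0.19, adjusted p = 0.613) and without the clone as a block (adjusted p = 0.479). Without clone 2 the difference was 0.58. The lowest response was −0.35 in the Bach1 clones (−0.28, −0.12 and −0.65, limma adjusted p = 0.986).

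Cdkn2a, whose pair of transcripts encodes an INK4 inhibitor and the p53 activator ARF, fell in the Erg clones. It went from 4.15, 4.11 and 4.86 to 3.64, 3.81 and 3.85, with no overlap, a change of −0.61 (SE 0.131, limma adjusted p = 0.0229). Without clone 3 the call was lost (−0.41, adjusted p = 0.0969). Its levels are low throughout, with means between 4.06 and 5.31 before induction on the Mouse 430_2 array. Falls of like size in the Bach1 clones (−0.62, SE 0.121, adjusted p = 0.986) and the Hunk clones (−0.50, SE 0.127, adjusted p = 0.293) were not called by limma, though each of the 3 clones fell in both. In the Nrip1 clones it went from 4.96, 4.30 and 4.79 to 5.40, 6.16 and 3.97, so that clone 2 rose by 1.86 and clone 3 fell by 0.82.

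**Figure D4:**
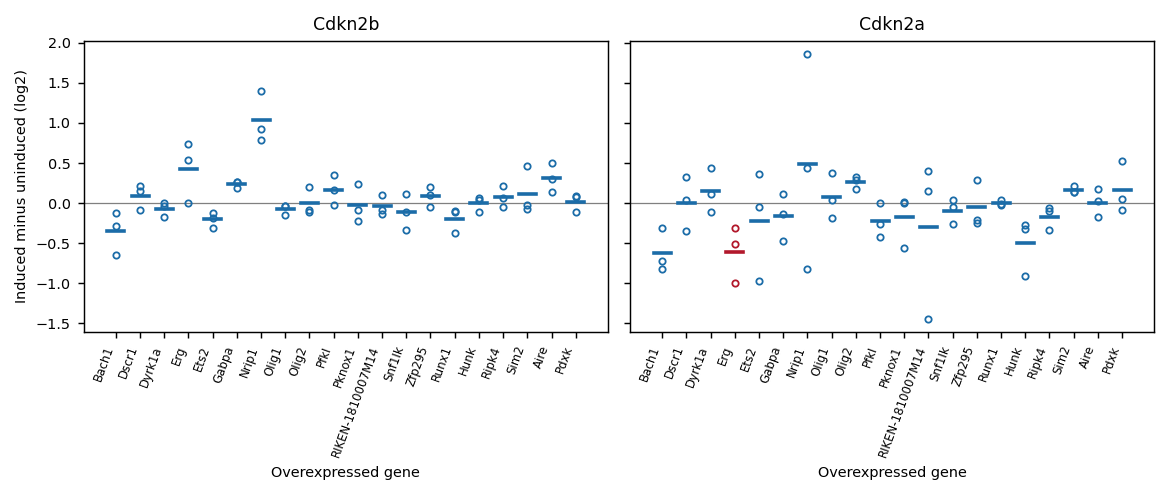
Response (log2 difference, y axis) of Cdkn2b and Cdkn2a in each experiment (x axis), with 1 circle per clone and a bar for the mean of 3; red marks limma's call. All 3 Nrip1 clones lie at 0.79 or higher for Cdkn2b, while the Nrip1 clones spread from −0.82 to 1.86 for Cdkn2a.

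Cdkn2d rose in the Runx1 clones from 8.53, 8.45 and 8.52 to 8.94, 8.91 and 8.80, with no overlap (0.39, SE 0.0670, limma adjusted p = 0.0171). The call was lost without clone 1 or clone 2. In the other 19 experiments its response lay between −0.13 and 0.15 and was not called. Cdkn2c ranged from −0.37 in the Dyrk1a clones to 0.25 in the Ets2 clones. With Dyrk1a it went from 5.75, 5.69 and 5.77 to 5.39, 5.46 and 5.25, with no overlap and a limma adjusted p of 0.242.

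Levels in uninduced clones differed between experiments, and are given as values, since each experiment was normalised by itself. For Cdkn1c on the Mouse 430_2 array, the mean ran from 8.66 ± 0.52 (SD, n = 3) in the Gabpa clones to 10.77 ± 0.12 in the Hunk clones. The clones of each experiment overlapped those of the next in order at 18 of 18 steps. Clones of the same transgene could differ as much: 8.73, 8.57 and 10.66 with Dscr1, and 10.29, 10.81 and 8.76 with Zfp295. The range over experiments was 2.11, and 1.68 after the median of each array was taken off.

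Cdkn1b 1419497_at split into 2 classes. Levels were 5.23, 5.57 and 6.44 in the Hunk clones, 5.21, 5.40 and 5.28 in the Aire clones and 5.04, 5.10 and 5.54 in the Zfp295 clones, while the other 16 experiments had means of 3.32 to 4.03. Neighbours overlapped at 17 of 18 steps, the exception lying between Snf1lk and Zfp295. The other Cdkn1b probeset did not follow this order, with 7.81 for Hunk, 8.11 for Aire and 7.68 for Zfp295 in a range of 7.33 to 8.75. The induced clones kept the split, with responses of 0.00 to 0.16 in the 3 experiments.

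**Figure D5:**
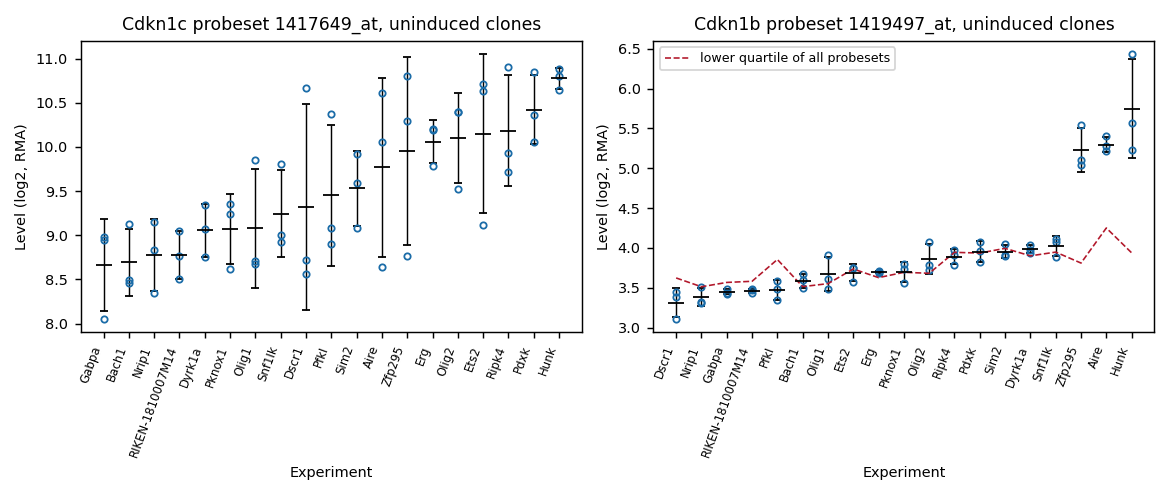
Level in uninduced clones (log2, y axis) of Cdkn1c and of Cdkn1b 1419497_at, with experiments of the Mouse 430_2 array in order of their mean (x axis). Circles are clones, bars the mean and SD of 3, and the dashed line the lower quartile of all probesets; Zfp295, Aire and Hunk lie above 5 for Cdkn1b, apart from the other 16.

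The partners of the inhibitors were read from lists of genes. These were cyclins and kinases of G1 and later phases, RB and E2F genes, p53 and its targets, and genes of Cip/Kip protein turnover. Others were factors known to control the inhibitor genes, neighbours of Cdkn1c and Cdkn2a, and proliferation markers. Each listed gene was counted once, by 1 probeset, while the shares beside the counts cover all probesets of the array, also those without a gene symbol. Of the 116 genes measured on the Mouse 430_2 array, 10 were called higher and 5 lower with Aire (against 2.45% and 1.48% of all probesets). With Erg 24 were called higher and 6 lower (against 5.71% and 6.28%), and with Nrip1 3 were called higher (against 0.113%). With Runx1, 18 of 108 were called higher and 14 lower, against 8.51% and 7.65% of all probesets. These shares also apply to the counts of single lists and cell type markers below, where 1 or 2 calls in a short list can lie near them.

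The D cyclins, which activate Cdk4 and Cdk6, went both ways. Ccnd2 rose by 2.33 in the Nrip1 clones (limma adjusted p = 0.0257) and fell by 0.80 with Aire, 0.85 with Erg and 0.93 with Runx1 (limma adjusted p = 0.0244, 0.000557 and 0.0106). It also fell by 0.94 with Sim2 (limma adjusted p = 0.0327), where no inhibitor was called within the experiment. Ccnd1 was 1.27 lower with Runx1 (adjusted p = 0.00138) and 0.43 higher with Erg (adjusted p = 0.0347). Of 15 genes measured in the list of cyclins and kinases, 2 of 15 were called lower with Aire, 1 higher and 1 lower with Erg. With Nrip1 1 was called higher, and with Runx1 2 in each direction. The list also holds genes of later phases than G1, such as Ccnb2, 1 of the 2 called higher with Runx1 (0.33, limma adjusted p = 0.0223).

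The retinoblastoma gene Rb1, the substrate of these kinases, was 0.88 higher with Aire and 0.63 higher with Runx1, and fell by 0.33 with Erg (limma adjusted p = 0.00844, 0.00292 and 0.0430). With Sim2, where no inhibitor was called within the experiment, it was 0.74 higher (limma adjusted p = 0.0457). With Aire, 3 of 15 RB and E2F genes were called higher and 0 lower. With Erg, 3 of 15 were called higher and 2 lower, E2f5 the largest fall at −0.51 (adjusted p = 0.00902). With Nrip1, 0 of 15 were called by limma in either direction (3 at an unadjusted p under 0.05), and with Runx1 2 of 11 were higher and 1 lower. Of 12 genes of Cip/Kip protein turnover (11 with Runx1), 1 was called higher with Erg, 1 higher with Runx1, and 0 with Aire and Nrip1 (1 and 2 at an unadjusted p under 0.05). Over all probesets, 5.71% were called higher and 6.28% lower with Erg, and 8.51% and 7.65% with Runx1.

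Genes of the list of p53 and its targets were called in the 3 experiments where Cdkn1a was. In 3 others, where Cdkn1a was not called within the experiment, 1 gene each was called. These were Pmaip1, a BH3-only death gene, at 0.68 with Pdxk and −0.99 with Olig2, and Trp53inp1 at 0.73 with Sim2 (limma adjusted p = 0.0498, 0.00318 and 0.0482). With Aire 4 of 18 were higher and 1 lower, with a list median of 0.24 against −0.003 for all genes. With Erg 7 were higher and 1 lower (median 0.26), with Pmaip1 at 1.02 (limma adjusted p = 0.000347). With Runx1 5 of 17 were higher and 1 lower (median 0.27). The 1 lower gene was Gadd45a, a growth arrest gene, in each: −0.48 with Aire, −1.04 with Erg and −1.58 with Runx1 (limma adjusted p = 0.0134, 0.000317 and 0.000265). With Nrip1, where neither Cdkn1a probeset was called (−0.03 and 0.03), 0 of 18 were called by limma (2 at an unadjusted p under 0.05) and the median was −0.01. Of all probesets, 0.113% were called higher with Nrip1, 2.45% with Aire, 5.71% with Erg and 8.51% with Runx1. Without the clone as a block, the calls of the p53 list fell to 0 with Aire, 3 with Erg and 4 with Runx1. The part of p53 in the Cdkn1a responses was not tested.

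Among factors known to control these genes, Id2, which blocks E proteins and binds RB, rose in all 4 experiments, by 0.88 with Aire, 2.51 with Erg, 1.85 with Nrip1 and 1.59 with Runx1 (limma adjusted p = 0.00338, 1.31e-05, 0.0250 and 0.000798). Its relative Id1 was 2.13 higher with Erg (adjusted p = 1.52e-05) and fell by 0.53 with Runx1 (adjusted p = 0.0198). Bmi1, a Polycomb gene that silences Cdkn2a, was 0.79 lower with Aire (adjusted p = 0.00385), where the Cdkn2a response was 0.01. With Runx1 Bmi1 was 0.59 higher (adjusted p = 0.00624), and the Cdkn2a response was 0.004. Myc, a repressor of Cdkn1a and Cdkn2b, was 2.64 lower with Runx1 (adjusted p = 8.94e-05), where its relative Mycn was 0.59 higher (adjusted p = 0.00368). In the same clones the Cdkn1a probesets were called higher, at 0.78 and 0.93, and the Cdkn2b response was −0.20 (adjusted p = 0.156). The parts of Myc and Bmi1 in the responses of Cdkn1a, Cdkn2a and Cdkn2b were not tested. Cebpb, a factor that restrains growth in several cell types, was 0.88 higher with Runx1 (adjusted p = 0.00191) and 0.47 lower with Aire (adjusted p = 0.0165). Over the 28 genes of the list, 2 were called higher and 2 lower with Aire, 5 and 2 with Erg, 1 and 0 with Nrip1, and 5 and 8 with Runx1.

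Neighbours of Cdkn1c on distal chromosome 7, an imprinted region, were called higher for 5 of 13 genes with Erg (median 0.24), for 1 of 13 with Aire (median 0.08) and for 1 of 13 with Nrip1 (median 0.05). With Runx1 2 of 12 were higher and 1 lower. The 1 gene with Nrip1 is Ascl2, a trophoblast factor, at 1.35 (limma adjusted p = 0.0250), also called with Erg at 0.78 (adjusted p = 0.00565). Ascl2 was called higher with Olig2 at 0.96 and with Pdxk at 0.64 as well (limma adjusted p = 0.00824 and 0.0479). In those clones Cdkn1c was not called, with responses of 0.12 and −0.16. Dhcr7, an enzyme of cholesterol synthesis in the same list, was 0.73 higher with Aire (adjusted p = 0.00505), 0.42 higher with Erg (adjusted p = 0.0228) and 1.22 higher with Runx1 (adjusted p = 0.00287). Of 3 neighbours of Cdkn2a (2 with Runx1), 1 was called lower with Runx1 and 0 in the other 3 experiments, with 0 or 1 at an unadjusted p under 0.05. Of 12 proliferation markers, 2 were called higher with Erg, 1 higher with Runx1 and 0 with Aire and Nrip1 by limma (2 and 0 at an unadjusted p under 0.05). The share of all probesets called higher was 5.71% with Erg and 8.51% with Runx1.

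Markers of other cell types moved in some of these experiments. With Erg, 7 of 8 endothelial markers were called higher (mean level 5.83 before and 7.41 after) and 6 of 10 stem cell markers lower (12.2 and 11.7). With Runx1, 7 of 10 stem cell markers were lower and 4 of 8 trophoblast markers higher (6.44 and 7.16). Of all probesets, 5.71% were called higher and 6.28% lower with Erg, and 8.51% and 7.65% with Runx1. With Nrip1, 0 of 10 stem cell markers were called by limma (5 at an unadjusted p under 0.05), with a median of −0.30 and 10 of 10 below 0, and 1 of 8 endothelial markers was called higher. With Aire, 1 of 10 stem cell markers and 2 of 8 endothelial markers were higher, and 1 endothelial and 2 trophoblast markers lower. Runx1 also gave 2 endothelial markers higher and 3 lower, and Erg 2 trophoblast markers lower. Fibroblast, mesoderm, neural and primitive endoderm markers gave 0 to 2 calls per list in each direction in each of the 4 experiments. Among these calls with Erg, Thy1 rose by 2.11, Sox11 by 1.87 and Kdr by 1.48, and Tubb3 fell by 0.36. Among those with Runx1, Eomes (also in the trophoblast list) rose by 1.74, Nes by 0.47 and Tubb3 by 0.45. Sox7, Pax6 and Sox11 fell there by 0.78, 0.71 and 0.50. The part of these changes in the responses of the inhibitors was not tested.

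Over the 19 mean responses of the Mouse 430_2 array, the genes with the pattern most like that of Cdkn1c were Hsd11b2 (Pearson r = 0.936), Tmem54 (0.928) and Mrc2 (0.912), which fell to 0.783, 0.757 and 0.788 without the Nrip1 experiment. Those most like Cdkn1a 1424638_at were Evl (0.885), Dhcr7 (0.879) and Mertk (0.868), at 0.901, 0.838 and 0.830 without Aire. For Cdkn1b 1434045_at they were Itpka, Rnf135 and Zfp710 (0.748 to 0.738), which fell to 0.503, 0.679 and 0.484 without Nrip1. For Cdkn2a they were Nr2c2ap, Sting1 and Sec22a (0.791 to 0.753), at 0.786, 0.718 and 0.795 without Bach1. For Cdkn2d they were Zfp383, Sigirr and Socs5 (0.744 to 0.681), at 0.745, 0.689 and 0.709 without Dyrk1a. These values describe 19 experiments that share array type and base line, and 5 of the 15 names were also among the closest 3 by rank correlation. For Cdkn1c, 0 of its 3 names were.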

How the data were processed

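Affymetrix arrays of 3 uninduced and 3 induced mES clones for each of 20 genes were used, 114 on Mouse 430_2 and 6 (Runx1) on Mouse 430A_2. The authors computed the deposited log2 values by RMA (affy, per the submitters' processing notes), within each experiment. Probesets with 1 gene symbol were named (34958 of 45101 and 20393 of 22690; 932 and 691 had several symbols, 9211 and 1606 none). Each experiment was fitted in limma 3.58.1 (R 4.3.3) with clone as a block, with Benjamini-Hochberg adjustment over all probesets, and calls were made at 0.05. One probeset without a value in Sim2 was left out there and over the 19 experiments of the Mouse 430_2 array, which were fitted on mean differences (mean, time) and on 57 clone differences (F test, contrasts). Clone numbers come from the labels, and the study's clone lists run in 1 order in 6 experiments. Same-numbered arrays deviated together (r above 0.1 in 54 of 60 pairs, and in all 3 pairs of 15 of 20 experiments). Named list genes were drawn from up to 3 per direction with the largest change among those called and moved alike in all 3 clones, in experiments where an inhibitor passed. Not every such gene is named. Some named genes are also given where they ranked lower, or where no inhibitor passed (Pdxk, Olig2 and Sim2). Likeness was taken over genes that varied more than the median probeset, each by its brightest probeset. Scripts were tested on simulated data. The number of arrays limits the precision. Members and lists were chosen with earlier results of these data known.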

Additional observations from a re-analysis of the deposited data

Results flagged for a closer look

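The responses of Cdkn1c in the Nrip1 and Erg clones differed from the mean of the other 18 experiments by 1.87 and 0.785, and those of Cdkn2b by 1.00 and 0.352, each by limma's test of the difference itself. The response of Cdkn1a 1421679_a_at in the Sim2 clones differed from that mean by 0.665, a call lost without the clone as a block (adjusted p = 0.274), while its other probeset, 1424638_at, differed by 0.149 (limma adjusted p = 0.697). Values for Nrip1 were past the threshold in each of the 6 alternatives run, and those for Cdkn1c and Cdkn2b in Erg and for Cdkn1a in Sim2 were not. Groups of 3 clones are too small for a test of single outlying clones.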

How the results depend on the processing

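The 13 calls became 5 without the replicate block, 3 with the methods' t-test, 6 to 15 when 1 replicate was left out (6 without replicate 3) and 4 at an adjusted p under 0.01, and stayed within 12 to 14 under the other normalization, variance and filter settings and with the Sim2 arrays crossed. No direction was reversed. The 5 responses that differed from the other experiments became 3, 8 and 3 without replicates 1, 2 and 3, and 2 without the replicate block. The time contrast fell from 2 calls to 1 without Aire or without Pdxk and to 0 among experiments with array medians above 5.2. The mean over experiments went from 0 calls to 2 with clone pairs in a random block. List genes called with Aire fell from 15 to 0 without the replicate block and to 3 without replicate 3 (18 without replicate 1 or 2), with Erg from 30 to 17 to 27 without 1 replicate, with Nrip1 from 3 to 0 without the replicate block and to between 0 and 3 without 1 replicate, and with Runx1 from 32 to 18 to 29. The causes were not tested, and fewer clones leave fewer degrees of freedom. In 5 experiments (Bach1, Gabpa, RIKEN-1810007M14, Hunk and Pfkl) not every same-numbered pair correlated above 0.1, and their inhibitor responses were called neither with nor without the replicate block. The range of uninduced levels moved by more than the spread between clones for Cdkn1b 1419497_at (2.19 after the array median was taken off), Cdkn2c (0.574) and Cdkn2d (0.878). Background correction and scan date could not be varied from normalised values and were not run.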
